A study of Mus musculus with 4 samples.

Results

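EN9 is a subtype of excitatory neuron in the developing mouse superior colliculus, the midbrain structure that receives retinal and other sensory input and directs orienting movements. Its members were the nuclei that carried the subtype name EN9 in the authors' annotation. There were 184 of them among 4093 excitatory nuclei and 9724 nuclei in all. Single-nucleus RNA sequencing was done at embryonic day 19 (E19) and postnatal days 4, 8 and 21 (P4, P8 and P21), with 1 library per stage. All groups were wild-type C57BL/6J mice with no treatment named in the labels, and each library pooled nuclei of several animals whose number was not given. By stage, from E19 to P21, the EN9 nuclei numbered 30, 31, 78 and 45.

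Excitatory neurons of the midbrain load glutamate into synaptic vesicles mainly through the transporter VGLUT2, the product of Slc17a6. The subtypes of such neurons are commonly told apart by transcription factors, which set and hold neuronal identity, and by cell-surface proteins such as cadherins, guidance receptors and glutamate receptor subunits, which take part in wiring and synaptic transmission. Between birth and the third postnatal week collicular neurons end axon growth and acquire mature synapses and channels.

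Levels below are UMIs (unique molecular identifiers, each standing for 1 captured RNA molecule) summed over the nuclei of a subtype in 1 library and expressed per 1000000 UMIs of the same sum (CPM). EN9 was set against the equal-weight mean of the other excitatory subtypes with at least 20 nuclei in the same library. These were 12 subtypes in each of the earlier pair of libraries and 10 in each of the later pair, where EN7 and EN11 were too few. Ratios are log2 values with 5 CPM added to both sides. For changes between stages, the others are the subtypes with at least 20 nuclei at both stages. Their change can therefore differ from that of the means printed for each library. Intervals are exact 95% intervals and cover counting error only. A subtype is itself a group made from expression, so its differences from the others are descriptions and were not tested. With 1 library per stage, differences between stages have no replicate check, and stage and library cannot be told apart.

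The EN9 sums held 218790, 272602, 1099747 and 847156 UMIs in stage order. A single UMI was therefore worth 4.57 CPM at E19 and 0.909 CPM at P8, so the values of the first pair of stages are the less precise. The median EN9 nucleus had 7062.5, 8222, 13779 and 17808 UMIs at the 4 stages, and the median nucleus of the other excitatory subtypes had 8094.5, 11855, 14251 and 19633. In the whole series, 9 cell barcodes occurred in more than 1 library, and 2 of the 18 nuclei concerned were EN9. Nuclei with at least 3 UMIs of the inhibitory genes Gad1, Gad2 and Slc32a1 together numbered 2 of 184 in EN9 and 98 of 3909 in the other excitatory subtypes.

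EN9 made up 2.24% of the excitatory nuclei at E19 (30 of 1338, Clopper-Pearson interval 1.52 to 3.19) and 2.57% (31 of 1206, 1.75 to 3.63) in the P4 library. Its share was 9.0% (78 of 867, 7.18 to 11.1) in the P8 library and 6.60% (45 of 682, 4.85 to 8.73) in the P21 library. The intervals of the first pair of stages lay wholly below those of the last pair. Over the same stages the share of EN1, the most abundant subtype at E19, was 38.4%, 34.7%, 15.1% and 20.2%. A larger share at P8 than at P4 was not particular to EN9: EN3, EN4, EN5, EN6, EN8, EN12 and EN13 also had one, for example from 3.81% to 11.9% in EN5 and from 3.40% to 11.6% in EN6. Of all nuclei, EN9 was 1.16%, 1.30%, 3.12% and 2.0%. A share of nuclei also depends on dissection, capture and the numbers of every other subtype, whose part in these values was not tested.

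**Figure D1:**
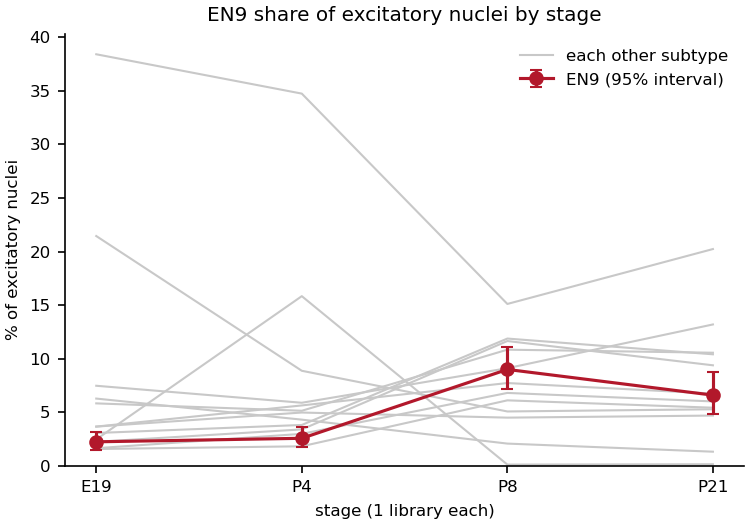
Share of EN9 among excitatory nuclei (red, with exact 95% intervals for counting error) and of each other excitatory subtype (grey lines) in the 1 library of each stage. The EN9 points of the earlier pair of stages, 2.24% and 2.57%, lie below those of the later pair, 9.0% and 6.60%.

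The excitatory label held against its marker. Slc17a6 had a UMI in 156 of 184 EN9 nuclei (84.8%, interval 78.8 to 89.6) and in 87.4% of the other excitatory nuclei, against 19.2% of inhibitory nuclei and 16.1% of vascular leptomeningeal nuclei, which should lack it. Median depth was 12600 UMIs in EN9, 11578 in the other excitatory nuclei, 8805 in inhibitory nuclei and 6231 in vascular leptomeningeal nuclei. After thinning every nucleus to 2300 UMIs the shares were 32.6%, 40.8%, 6.62% and 6.50%. Shares of nuclei with a UMI, here and below, pool the 4 stages, whose mix differed between the groups. From E19 to P21 the other excitatory nuclei numbered 1308, 1175, 789 and 637, and the EN9 nuclei 30, 31, 78 and 45. The part of that mix in the shares was not tested. The level of Slc17a6 in EN9 was 279, 220, 179 and 187 CPM in stage order, beside means of 293, 246, 186 and 177 CPM in the other subtypes. The other vesicular glutamate transporters, Slc17a7 and Slc17a8, each had a UMI in 1 of 184 EN9 nuclei. The GABA-synthesis genes Gad1 and Gad2 had a UMI in 13.0% and 11.4% of EN9 nuclei, no higher than their 21.4% and 17.96% in vascular leptomeningeal nuclei.

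Among markers of other cell types, the cholinergic genes Chat, Slc5a7 and Slc18a3 had no UMI in EN9 in any of the 4 libraries. Of the monoaminergic genes, Th, Slc6a3, Slc6a4 and Fev were at 0 in all 4. The summed level of 5 oligodendrocyte precursor markers was 9.14, 22.01, 15.5 and 4.72 CPM, within the 2.70 to 46.4 CPM seen over the other excitatory subtypes and stages, and Sox10 was at 0 in all 4 libraries. At P4 the highest other subtype was at 20.9 CPM. That of 7 astrocyte markers lay between 67.3 and 101 CPM, where the other subtypes ran from 48.2 to 479 CPM. The summed level of 5 thalamic neuron markers was 2294, 2021, 1520 and 882 CPM, above every other excitatory subtype at P4, P8 and P21 but not at E19. Nearly all of it was Lef1 (1979, 1625, 1302 and 642 CPM) and Tcf7l2, both of which other collicular subtypes also held, while Gbx2, which marks young thalamic neurons, was at 0 in all 4 libraries.

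The other annotations deposited by the authors followed EN9 to different degrees. Their cluster 20 held 174 of the 184 EN9 nuclei, and 174 of its 183 nuclei were EN9. One of their reference label sets did not set EN9 apart. It gave the label ESC1 to 61.4% and ESC2 to 38.6% of EN9 nuclei, beside 61.3% and 35.7% of the other excitatory nuclei. Their other set gave 183 of the 184 EN9 nuclei the label 11, which also fell on 91 EN1 nuclei among 285 nuclei in all. Those 91 EN1 nuclei held Sox6 at 1465, 878, 1194 and 644 CPM at E19, P4, P8 and P21, against 248, 248, 535 and 255 CPM in the other 1111 EN1 nuclei. For Sox6, Zeb2, Cdh4 and Grik1 they lay between the rest of EN1 and EN9 in each library, but this did not hold for every gene compared. Adarb2, at 360, 262, 648 and 707 CPM in the labelled EN1 nuclei, was below the rest of EN1 (765 and 404 CPM) and EN9 at E19 and P4. Bnc2, at 921, 839, 707 and 513 CPM, was above both from P4 on. Nr5a2 stood at 0.627 CPM in them over all stages (1 UMI), 6.70 CPM in the rest of EN1 and 55.4 CPM in EN9. Such labels are drawn from the same expression values, so these levels describe the label and were not tested.

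Of 6098 genes that reached 20 CPM, 26 were higher in EN9 than in the mean of the other excitatory subtypes by 2-fold or more in all 4 libraries (0.426%), and 82 were lower (1.34%). The same count for each other subtype present at all 4 stages ran from 7 genes higher in EN1 to 63 in EN12, and from 26 lower in EN1 to 132 in EN6. By the correlation of log levels over 10463 genes, averaged over the 4 libraries, EN9 was most like EN1 (mean r of 0.931), then EN4 (0.920) and EN3 (0.918). Those points share library and gene set, and EN1 also had the most nuclei.

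The genes highest in EN9 included the transcription factor genes Sox6, Nr5a2 and Zeb2, and the zinc finger gene Bnc2, which is described further below. Sox6 encodes an SRY-box factor known from the specification of cortical interneurons and oligodendrocyte precursors. It stood at 2724 CPM at E19 (interval 2510 to 2952) and 2036 CPM at P4 (1870 to 2213). In the later pair of libraries it stood at 2210 CPM (2123 to 2299) and 1254 CPM (1179 to 1331). The means of the other subtypes were 217, 188, 258 and 149 CPM. EN9 was the highest of all subtypes in every library, and the next was EN5 or EN4, at 700, 556, 665 and 370 CPM. The log2 ratio to the mean was 3.62, 3.40, 3.07 and 3.03. On GRCm38, Sox6 lies on the minus strand of chromosome 7 from 115470872 to 116038796 and overlaps 2 annotated genes on the opposite strand, among them its antisense gene Sox6os.

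Within EN9, Sox6 was broadly shared. It had a UMI in 180 of 184 EN9 nuclei (97.8%) and in 35.8% of the other excitatory nuclei, and after thinning in 90.8% and 21.1%. In each library 1 EN9 nucleus had no Sox6 UMI. At P8 the middle nuclei lay between 1398 and 2889 CPM (quartiles) around a median of 2191, and 84.6% of the 78 nuclei exceeded the 90th percentile of the other excitatory nuclei. Sox6 was also high in oligodendrocyte precursors, at 3929 CPM at E19 and 2150 at P21, and in astrocytes, at 1087 and 1228 CPM, whose markers were at the low levels given above.

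Nr5a2 encodes a nuclear receptor, also known as LRH-1. Its level in EN9 was 64.0, 51.4, 54.6 and 55.5 CPM, from 14, 14, 60 and 47 UMIs. The means of the other subtypes were 2.16, 0.666, 0.517 and 0.296 CPM, and the highest single value elsewhere was 15.6 CPM, in EN1 at E19. EN9 and the other subtypes did not overlap in any library. A UMI was present in 52 of 184 EN9 nuclei (28.3%, interval 21.9 to 35.4) and in 1.43% of the other excitatory nuclei, with 0.231% in inhibitory and 0.619% in vascular leptomeningeal nuclei. Nr5a2 lies on the minus strand of chromosome 1 from 136842571 to 136960448 and overlaps no other annotated gene.

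Zeb2 encodes a zinc finger homeobox repressor. Its level in EN9 fell by more than 2-fold from E19 to P21, from 1746 CPM over 1082 and 1158 to 421 CPM. The other subtypes had means of 213, 182, 224 and 127 CPM. The nearest subtype was EN5 at E19, P4 and P8, at 776, 707 and 880 CPM, and EN4 at P21, at 358 CPM. The EN9 interval at P21, 379 to 467 CPM, lay above that value, but the EN4 value has counting error too, which this comparison leaves out. Zeb2 was also high in microglia, at 2692 CPM at P21, and in oligodendrocyte-lineage nuclei, at 2471 CPM at P21. In EN9, 6 microglial markers together reached at most 18.3 CPM, with Tmem119 at 0 in all 4 libraries. The summed level of 5 oligodendrocyte markers in EN9 was 50.3, 62.4, 42.7 and 102 CPM, and at P21 the other subtypes ran from 72.4 to 111 CPM. The part of oligodendrocyte RNA in the Zeb2 level was not tested.

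Other genes of the leading group act on RNA, on the cytoskeleton and at the cell surface. Adarb2, an RNA-editing enzyme relative without known editing activity, stood at 1911, 1794, 2174 and 2289 CPM against means of 363, 355, 399 and 361 CPM. Inhibitory neurons held it at 2456, 2466, 2246 and 1779 CPM, so it did not set EN9 apart from them. Rbm20, a splicing regulator best known from heart muscle, stood at 137, 227, 222 and 178 CPM against means of 13.1, 21.7, 26.4 and 30.2 CPM. Arhgap6, a GTPase-activating protein, stood at 183, 301, 310 and 279 CPM against 21.9, 33.6, 50.8 and 53.5 CPM. For these 3 genes EN9 was the highest excitatory subtype in each library. The next for Rbm20 was EN5, much nearer than the mean, at 83.6, 120, 89.4 and 92.5 CPM. The next for Arhgap6 was EN8 at E19, EN5 at P4 and P8, and EN4 at P21, at 64.4, 91.1, 166 and 153 CPM.

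Itpr1, the inositol trisphosphate receptor that releases calcium from internal stores, stood at 219, 242, 306 and 548 CPM against means of 34.7, 68.8, 108 and 216 CPM. Both levels increased with stage, and EN9 stayed the highest subtype. Thsd4, a secreted matrix protein, stood at 169, 143, 216 and 438 CPM against 57.6, 48.6, 40.4 and 72.2 CPM. EN11 was above EN9 for it at E19 and P4, at 292 and 283 CPM. Megf11, a cell-surface protein of retinal mosaic spacing, stood at 1399, 965, 925 and 709 CPM, and EN5 was above EN9 for it at all stages but P21.

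Bnc2, a zinc finger protein, had a UMI in all 184 EN9 nuclei and in 34.3% of the other excitatory nuclei. After thinning the shares were 78.3% and 21.9%, beside 48.6% in vascular leptomeningeal nuclei and 2.89% in inhibitory nuclei. Its level in EN9 was 1152, 638, 664 and 410 CPM. EN6 stood above EN9 in each library, at 2022, 1371, 1174 and 795 CPM. Bnc2 was also held by EN8, at 543, 413, 405 and 351 CPM, and by EN1, at 469, 323, 529 and 313 CPM. The remaining genes among the 15 with the highest ratios were Traip, Nek7, Tmem232 and Col26a1, with log2 ratios between 1.31 and 2.82, and the cadherin Cdh4. For Col26a1, EN5 stood above EN9 at P8, at 443 against 401 CPM, and EN9 was the highest at the other stages. For Tmem232 at P21, EN4 and EN5 were close to EN9, at 83.5 and 79.2 against 92.1 CPM. After thinning to 2300 UMIs, the smallest log2 ratio over the libraries dropped below the 2-fold limit for Nek7 and Tmem232, to 0.62 in each.

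**Figure D2:**
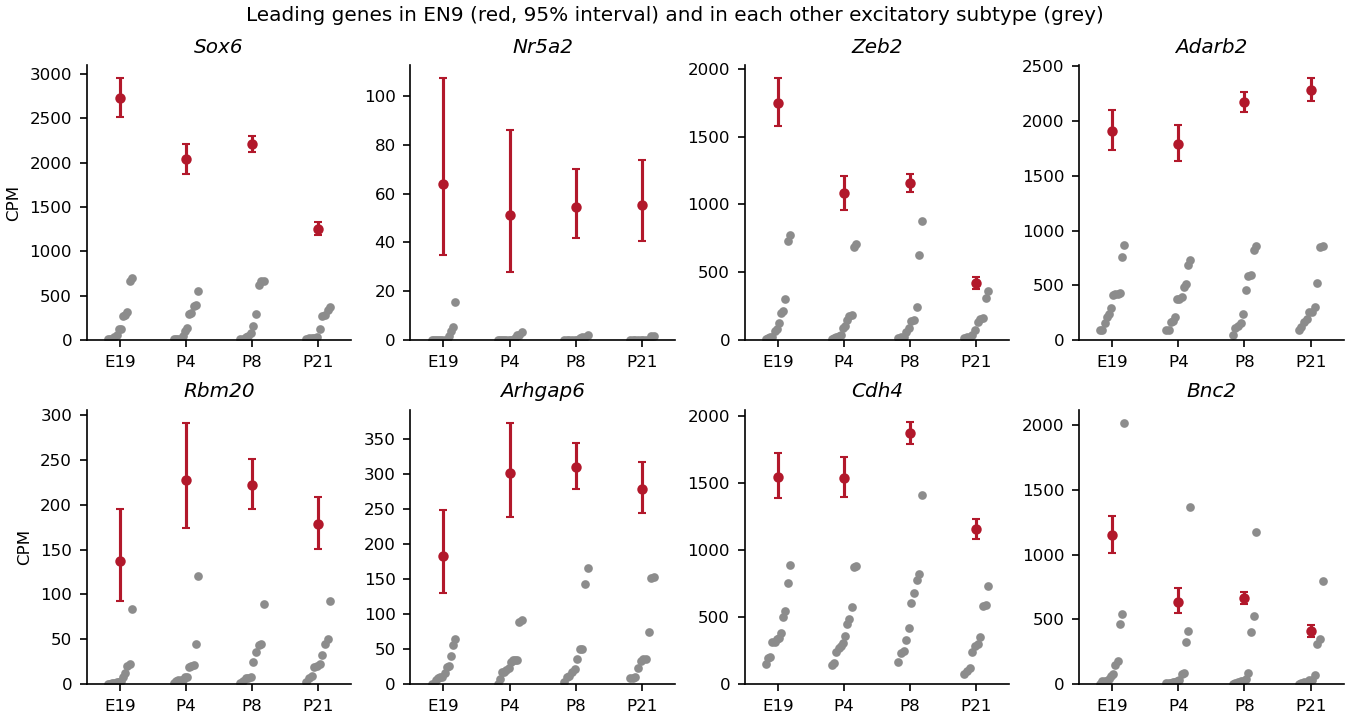
Level in CPM (linear axes) of 8 leading genes in EN9 (red, exact 95% Poisson intervals) and in each other excitatory subtype with at least 20 nuclei (grey points) at the 4 stages. EN9 lies above every other subtype in each library for all genes shown but Bnc2, for which EN6 is higher.

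Among the transcription factors listed for this tissue, 64 were tested and 2 were higher in EN9, Sox6 and Zeb2 (3.13%), while 10 were lower (15.6%), beside 0.426% and 1.34% of all genes. Those lower included Cux2, Esrrg, Etv1, Nfib, Rarb, Sox5, Tfap2b, Tshz1 and Zfhx3. Etv1 was concentrated in EN13, whose level the mean of the others includes. Nr5a2 and Bnc2, both higher in all 4 libraries, were not on this list and are not in its counts. The median log2 ratio of the list, averaged over the libraries, was -0.42, beside -0.06 for all genes tested. Sox5, which encodes the closest relative of Sox6, stood at 59.4, 77.0, 62.7 and 30.7 CPM against means of 165, 218, 175 and 184 CPM. The paralogues therefore differed from the mean in opposite directions in all 4 libraries.

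Several factors of collicular neurons were higher in EN9 in part of the libraries only. Lef1, the nuclear partner of beta-catenin, had log2 ratios of 1.43, 1.38, 0.87 and 0.78. Pou4f1, the homeodomain factor Brn3a, had ratios of 1.37, 1.32, 1.91 and 0.71, and Ebf3 had 1.44, 1.38, 1.16 and 0.71. In each of these 3 the P21 ratio was the smallest and was under the 2-fold limit. Of 17 collicular markers tested, 4 were lower (23.5%, beside 1.34% of all genes), namely Etv1, Nxph1, Spon1 and Tfap2b. None was higher in all 4 libraries, which for a list of this size is near the 0.426% of all genes. EN13 held Etv1 at 1006 CPM at E19, and the mean of the others includes that level. EN9 was at 13.7 CPM there, within the 0 to 55.0 CPM of the subtypes other than EN13. Against EN1, EN3 and EN4 alone the smallest log2 ratio of Etv1 in size was -0.44.

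Kainate receptors are ionotropic glutamate receptors built from the subunits GluK1 to GluK5, the products of Grik1 to Grik5. In EN9, 3 of these genes were lower in all 4 libraries, 1 was higher and 1 was near the mean. Grik1 stood at 68.6, 91.7, 69.1 and 16.5 CPM (15, 25, 76 and 14 UMIs), against means of 825, 916, 879 and 563 CPM. EN9 was the lowest of all excitatory subtypes for Grik1 in every library, with log2 ratios of -3.50, -3.25, -3.58 and -4.72. After thinning, a Grik1 UMI was found in 9.78% of EN9 nuclei and 51.5% of the other excitatory nuclei, and the 11.5% in vascular leptomeningeal nuclei was above the EN9 share. Grik1 lies on the minus strand of chromosome 16 from 87895900 to 88290265 and overlaps no other gene.

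Grik2 stood at 279, 312, 327 and 438 CPM against means of 1303, 1226, 996 and 1116 CPM. Grik4, a subunit of the high-affinity group, stood at 64.0, 66.0, 58.2 and 33.1 CPM against 139, 185, 183 and 184 CPM. Neither was the lowest of the subtypes throughout: EN5 or EN6 was below EN9 for Grik2 in each library. Grik3 went the other way, at 462, 400, 510 and 611 CPM against means of 191, 177, 202 and 131 CPM. It was highest in EN9 at P4, P8 and P21, and at E19 only EN5 was above it, at 522 CPM. Grik5, the other high-affinity subunit, stood at 251, 227, 244 and 138 CPM against 227, 222, 205 and 137 CPM, with log2 ratios between 0.02 and 0.24. Of the other glutamate receptor genes among the 20 tested, none passed the 2-fold limit in all 4 libraries, so 1 of the 20 was higher and 3 were lower, beside 0.426% and 1.34% of all genes.

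Cadherins bind like to like between cells. Of 26 cadherins and protocadherins tested, Cdh4 was higher (3.85%, beside 0.426% of all genes) and Cdh9, Cdh11, Cdh20 and Cdh22 were lower (15.4%, beside 1.34%). Cdh4, or R-cadherin, is a classical cadherin known from retinal and tectal development. It stood at 1545, 1533, 1869 and 1154 CPM against means of 410, 417, 567 and 337 CPM and was the highest of the subtypes at each stage. The next subtype was much nearer than the mean. It was EN1 at E19 and P8, at 886 and 1411 CPM, and EN5 at P4 and P21, at 882 and 729 CPM. Cdh9 stood at 4.57, 7.34, 9.09 and 7.08 CPM against 62.9, 65.9, 63.9 and 63.7 CPM. Cdh20 stood at 4.57, 11.01, 14.5 and 9.44 CPM against 75.8, 98.9, 111 and 94.8 CPM. That mean includes EN10, which held Cdh20 at 294, 399, 451 and 289 CPM. EN9 was the lowest subtype for Cdh20 at P4, P8 and P21, but EN12 was at 0 at E19. EN5 was near EN9 at E19 and P21, at 6.96 and 12.5 CPM. Cdh22 had UMIs in EN9 at P8 only, 11 in number. With a floor of 3 counts per library, it was at least 3.22-fold, 4.21-fold and 8.83-fold lower than the mean at E19, P4 and P21.

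**Figure D3:**
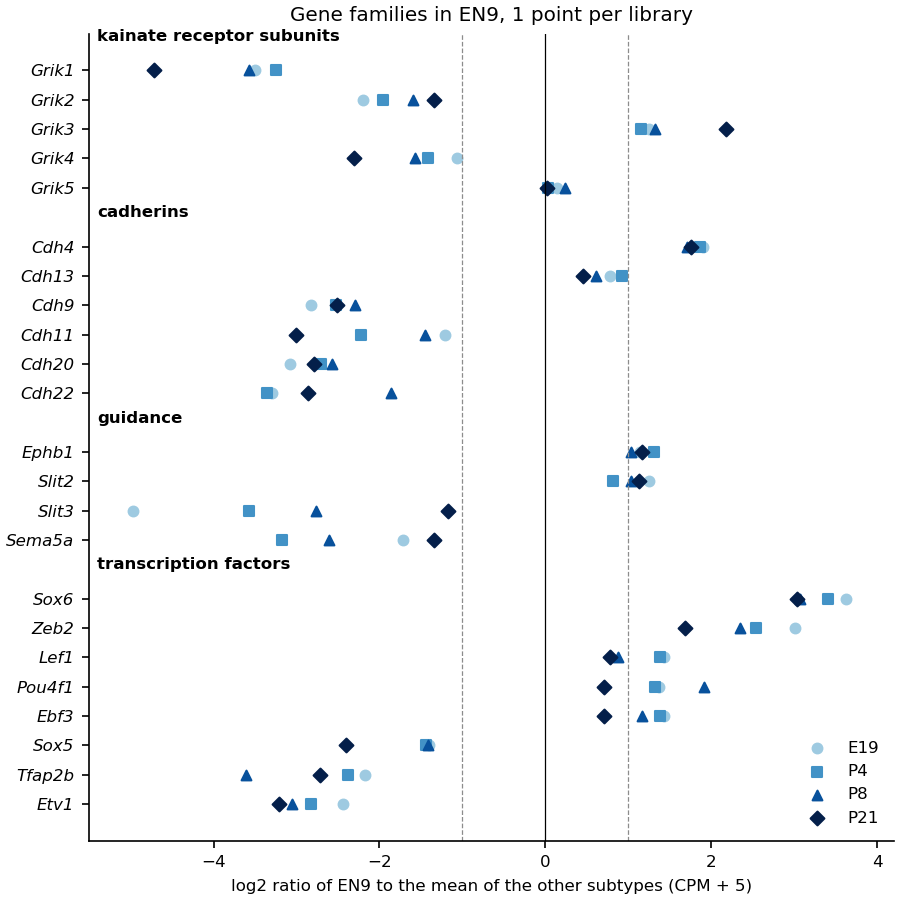
Log2 ratio of EN9 to the mean of the other excitatory subtypes (5 CPM added to both) for members of 4 gene families, 1 marker per library, with dashed lines at 2-fold. Grik3 and Cdh4 lie right of the upper line in all 4 libraries, while Grik1, Grik2, Grik4, Cdh9, Cdh11, Cdh20 and Cdh22 lie left of the lower one.

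Of 58 axon guidance genes tested, 1 was higher (1.72%, beside 0.426% of all genes) and 2 were lower (3.45%, beside 1.34%). Counts this small do not set the list apart from all genes. Ephb1, a receptor for B-class ephrins, stood at 2697, 2131, 2002 and 1507 CPM against means of 1224, 856, 979 and 668 CPM. EN12 was above EN9 for Ephb1 at E19, at 2822 CPM, and EN9 was the highest from P4 on. Slit3, a secreted repellent ligand of Robo receptors, had 0, 2, 18 and 38 UMIs in EN9, at 0, 7.34, 16.4 and 44.9 CPM against means of 151, 142, 140 and 108 CPM. The gap to the mean was at least 11.03-fold at E19, with a floor of 3 counts, and a ratio of 0.416 at P21. Slit2, the related ligand, had log2 ratios of 1.25, 0.82, 1.03 and 1.13, under the limit at P4. Sema5a, a semaphorin, had ratios of -1.72, -3.17, -2.60 and -1.34.

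Among 72 synaptic organisers tested, none was higher, which is near the 0.426% of all genes, and 6 were lower (8.33%, beside 1.34%), namely Igsf21, Il1rapl2, Lrrtm4, Mdga1, Nxph1 and Sdk1. Nxph1, a neurexin ligand, stood at 32.0, 62.4, 42.7 and 60.2 CPM against means of 516, 411, 297 and 330 CPM. Lrrtm4, a postsynaptic adhesion protein, stood at 576, 587, 912 and 1743 CPM against 1941, 2956, 3172 and 4290 CPM. Lrrtm4 increased with stage in both, and EN9 stayed below the mean. None of 67 ion channel genes and none of 19 GABA and glycine receptor genes passed the limit in either direction, which for lists of these sizes is near the shares of all genes. The nearest inhibitory receptor gene was Gabra5, with log2 ratios of 0.89, 1.05, 1.32 and 1.28. Of 19 neuromodulator and peptide receptors tested, Gfra1 and Htr2c were lower (10.5%, beside 1.34% of all genes).

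The lowest genes of all by ratio also included long noncoding and poorly described genes. B230323A14Rik had 1 UMI in EN9 at P8 and 0 at the other stages, and against the mean it was at least 6.30-fold, 6.04-fold and 18.7-fold lower at E19, P4 and P21. This gene was highest in EN3, at 543, 472, 558 and 420 CPM, and next in EN4, at 403, 256, 268 and 166 CPM. Also at 0 were EN5, EN6, EN7, EN12 and EN13 at E19, EN10 at P4 and EN8 at P21. EN5 was at 0, 4.45, 1.44 and 2.67 CPM in stage order, so such a low level was not particular to EN9. The mean of the others includes the EN3 and EN4 levels. Necab1, a neuronal calcium-binding protein, had 2, 1, 4 and 2 UMIs in EN9, at 9.14, 3.67, 3.64 and 2.36 CPM against means of 107, 119, 154 and 142 CPM. EN9 was the lowest subtype for Necab1 in all 4 libraries, but EN6 was hardly higher at E19, at 9.91 CPM. Sv2b, a synaptic vesicle protein, stood at 4.57, 11.01, 5.46 and 8.26 CPM against 58.9, 89.0, 81.6 and 99.3 CPM. EN9 was again the lowest in each library, at E19 from 1 UMI and with EN10 next at 9.48 CPM. After thinning the smallest ratio of Sv2b in size was -0.96. Tmem132c and Tmem132b were concentrated in EN12, and AC129186.1 in EN13 from E19 to P8, and the mean of the others includes those levels.

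**Figure D4:**
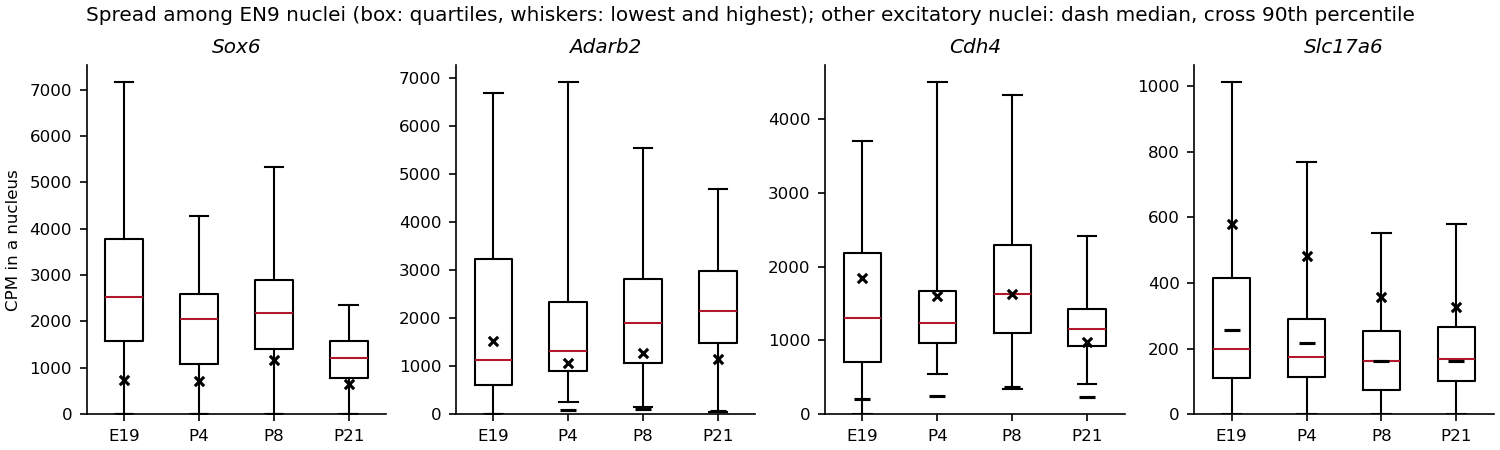
CPM of Sox6, Adarb2, Cdh4 and Slc17a6 in single EN9 nuclei at each stage (boxes are quartiles with the median in red, whiskers the lowest and highest nucleus), with the median (dash) and 90th percentile (cross) of the other excitatory nuclei. The EN9 median of Sox6 lies above the cross at every stage, as 2191 CPM at P8, while that of Slc17a6 lies near the dash.

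Across stages, EN9 changed most between E19 and P21, the widest interval. Of 2362 genes with at least 100 CPM at the higher stage, 332 rose (14.1%) and 327 fell (13.8%) by 2-fold or more. From E19 to P4, 90 of 2168 rose (4.15%) and 73 fell (3.37%). From P4 to P8, 15 of 2051 rose (0.731%) and 45 fell (2.19%). From P8 to P21, 121 of 2164 rose (5.59%) and 131 fell (6.05%). The share past the limit differed between subtypes, and so did the UMIs behind it. From E19 to P4 it was 7.52% in EN9, 0.722% in EN1, which had 5054175 and 5473583 UMIs, and 10.2% in EN13, which had 158022 and 185156. The order did not follow the UMIs throughout: EN2, with 2122848 and 1243536, had 5.50%, above the 3.23% of EN4, with 563588 and 637249. How far counting error makes up these shares was not tested.

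Genes of young neurons fell together. Of 23 tested from E19 to P21, 20 fell and none rose, beside 13.8% of all genes falling, and the median log2 ratio was -2.28 in EN9 and -2.19 in the mean of the other subtypes. Tubb2b, a tubulin of growing neurites, was at 841, 393, 126 and 4.72 CPM. Nnat, or neuronatin, was at 663, 385, 170 and 10.6 CPM. Gap43, the growth cone protein, fell from 612 to 135 CPM and Dcx, the doublecortin of migrating neurons, from 251 to 62.6 CPM. Sox11, a factor of immature neurons, fell from 311 to 66.1 CPM, and in EN9 it was at P21 the highest of the subtypes, against a mean of 25.8 CPM.

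Genes of mature neurons rose. Of 19 tested from E19 to P21, 14 rose and none fell, beside 14.1% of all genes rising, with medians of 1.54 in EN9 and 1.23 in the other subtypes. This list and that of young neurons were chosen with earlier results of these data known, and this one includes Specc1 and Sgpp2. Its share of rising genes therefore describes the list and is not a test of it. Grin2a, the NMDA receptor subunit that gains in share with age, rose from 215 to 840 CPM, a log2 change of 1.94 against 0.64 in the others. Its level at E19 was below the mean of 553 CPM over the 12 subtypes of that library, and at P21 the mean over 10 subtypes was 952 CPM. Tnr, the perineuronal matrix protein tenascin-R, was at 77.7, 84.4, 223 and 564 CPM, a log2 change of 2.78 against 0.73. Specc1 was at 22.9, 36.7, 16.4 and 436 CPM, and Sgpp2, a sphingosine phosphate phosphatase, had no UMI in EN9 before P21, where it was at 161 CPM, at least 58.9-fold above P8. Specc1 and Sgpp2 rose in all 10 other subtypes from P8 to P21, in the same libraries.

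Of 52 ion channel genes tested from E19 to P21, 14 rose (26.9%, beside 14.1% of all genes) and 6 fell (11.5%, near the 13.8% of all genes). Kcnc1, a fast potassium channel, went from 82.3 to 227 CPM, and Scn8a, the sodium channel of mature axons, from 192 to 513 CPM. Cacng4, an AMPA receptor auxiliary subunit of young neurons, fell from 242 to 13.0 CPM. Among the glutamate receptors Grm5, the metabotropic subunit mGluR5, fell from 2002 to 865 CPM, a log2 change of -1.21 where the other subtypes had 0.11. Of 38 transcription factors tested, 4 rose (10.5%, near the 14.1% of all genes) and 15 fell (39.5%, beside 13.8%). Tcf4 went from 96.0 to 267 CPM, a log2 change of 1.43 against -0.38 in the others. The adhesion genes Pcdh9, with log2 changes of 2.49 against 0.59, and Cntn3, with 2.10 against -0.23, also rose in EN9 past the limit that the mean of the others did not reach.

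The genes whose change from E19 to P21 most exceeded that of the other subtypes were Ccdc141, Unc13c, Pde1c, Dgkg and Syt2. Pde1c, a calcium- and calmodulin-dependent phosphodiesterase, was at 165, 172, 202 and 539 CPM in EN9 and at means of 121, 91.1, 52.6 and 33.2 CPM in the others. It rose in EN9, and it fell past 2-fold in 8 of 10 other subtypes. Ccdc141, a coiled-coil protein of neuronal migration, was at 0, 7.34, 19.1 and 119 CPM in EN9, at least 8.69-fold higher at P21 than at E19, and at means of 10.4 to 14.3 CPM elsewhere. Unc13c, a synaptic vesicle priming factor, was at 22.9, 139, 216 and 478 CPM and came from below the other subtypes, whose means were 251, 385, 473 and 573 CPM. Syt2, the fast calcium sensor of release, went from 0 to 198 CPM, at least 14.5-fold, and Dgkg, a diacylglycerol kinase, from 0 to 149 CPM, at least 10.9-fold. Both also rose in the mean of the others, with log2 changes of 2.60 and 2.10 against 5.35 and 4.94 in EN9.

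The genes at the opposite end were Cpne4, D130079A08Rik, Plscr4, Kcnt2 and Nr3c2. D130079A08Rik, a long noncoding RNA gene, was at 407, 341, 465 and 43.7 CPM in EN9, against means of 49.9, 50.1, 53.5 and 30.4 CPM. Plscr4, a phospholipid scramblase family member, was at 101, 117, 131 and 36.6 CPM against 4.26, 10.4, 9.89 and 11.9 CPM. Both were above every other subtype until P8. At P21 EN4 was above EN9 for D130079A08Rik, at 93.6 CPM, while for Plscr4 EN9 was still the highest and EN10 was next, at 35.2 CPM, within the EN9 interval of 24.9 to 51.9 CPM. Cpne4, a copine that binds membranes in the presence of calcium, was at 197, 125, 50.9 and 36.6 CPM while the mean of the others was 221, 284, 266 and 358 CPM. Kcnt2, a sodium-activated potassium channel, fell from 219 to 39.0 CPM. Nr3c2, the mineralocorticoid receptor, was at 197 and 349 CPM at E19 and P21 in EN9, under 2-fold, and at 59.4 and 379 CPM in the mean of the others, all 10 of which rose.

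**Figure D5:**
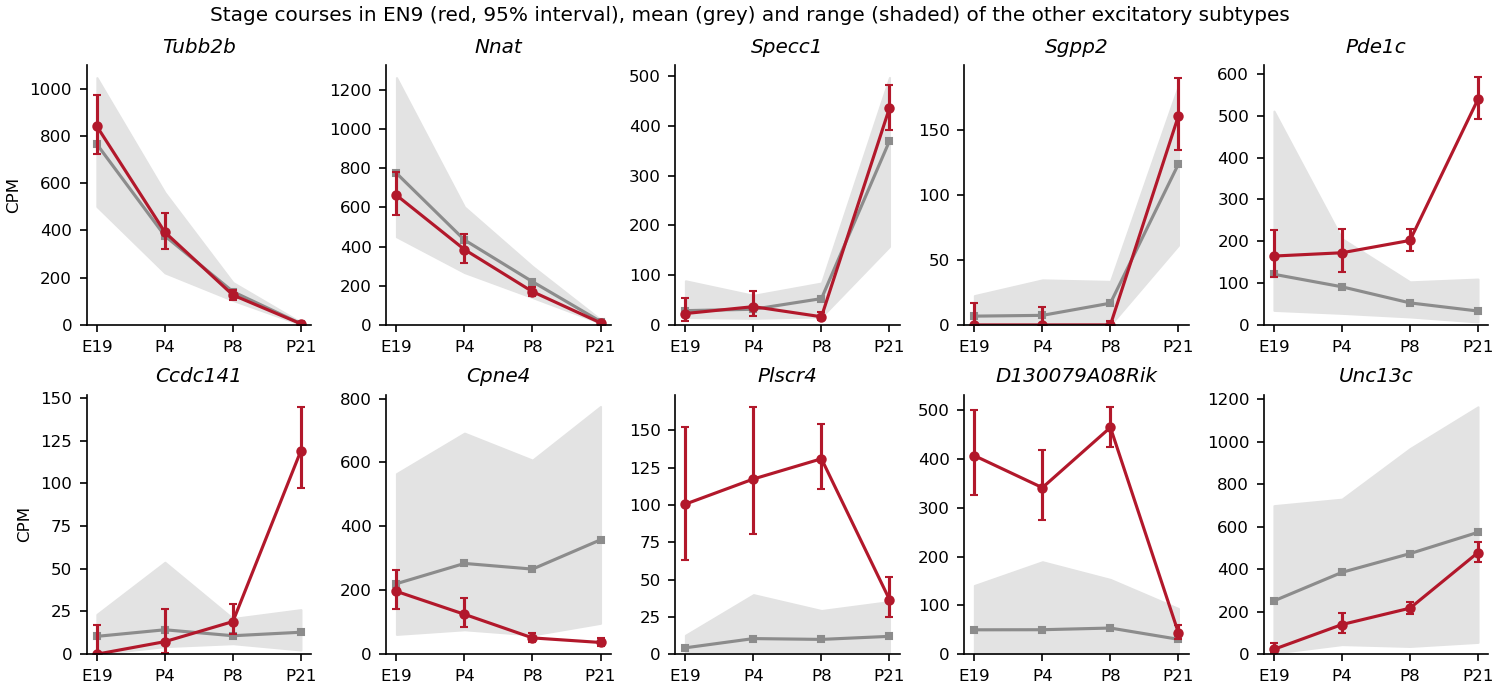
CPM of 10 genes by stage (linear axes) in EN9 (red, exact 95% Poisson intervals), with the mean (grey line) and range (shading) of the other excitatory subtypes. Tubb2b and Nnat follow the other subtypes downward and Specc1 and Sgpp2 follow them upward, while Pde1c reaches 539 CPM in EN9 at P21 against a mean of 33.2 CPM.

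Among the largest changes between neighbouring stages, Ttr stood apart. Ttr encodes transthyretin, the secreted product of the choroid plexus. It had 0, 41, 1 and 0 UMIs in EN9, and at P4 its level was 150 CPM, against a mean of 73.8 CPM in the other subtypes, all 12 of which rose past 2-fold from E19. The summed level of 5 epithelial and ependymal markers, Ttr among them, was 13.7, 176, 10.9 and 1.18 CPM in EN9 and reached 121 CPM in another subtype at P4. The part of free RNA in the P4 library was not tested. From E19 to P4 the other large rises were AC149090.1, Vwa5b2 and Ctnna3, with log2 changes of 2.99, 2.71 and 2.39, and the large falls were Pafah1b3, Mllt3, Maml3 and Bmpr2, with changes between -2.24 and -1.70. Bmpr2, a bone morphogenetic protein receptor, had 39 and 14 UMIs and did not pass the limit in any of the 12 other subtypes.

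From P4 to P8 the largest rises were Kcnh5, Tnr, Chka and Dync1i1, with log2 changes of 1.49, 1.35, 1.29 and 1.25. Next to Ttr, the largest falls were Foxp2, a forkhead factor (143 to 31.8 CPM), Pcsk1n (235 to 60.01 CPM) and Tmsb4x (371 to 116 CPM). From P8 to P21, BC030499 rose from 0 to 114 CPM, as it did in all 10 other subtypes. Fbxl7 fell from 115 to 5.90 CPM, a log2 change of -3.47 against -1.61 in the others. Between E19 and P21, Gm13629 and Rasgrf1, a Ras exchange factor, rose to 162 and 309 CPM, and Fabp7 and Tmsb10 fell to 3.54 and 10.6 CPM. All 4 moved the same way past 2-fold in each of the 10 other subtypes.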

How the data were processed

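Superior colliculus nuclei of pooled C57BL/6J mice were profiled with 10x Genomics 3′ v3 chemistry and Cell Ranger 3.0.2 on a pre-mRNA mm10 reference, per the labels and the submitters' processing notes. The deposited matrix holds raw UMI counts of 31053 genes in 9724 nuclei. The deposited table of nuclei gives stage, class, subtype, cluster, reference labels and the percent of mitochondrial and ribosomal UMIs, as the authors computed them; 4 of its columns were not used. How the authors filtered nuclei, removed doublets and named subtypes is not given in the sources used here. No nucleus was removed and no doublet caller was run.

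UMIs were summed per library and subtype and scaled to CPM. A gene counted as higher or lower when its log2 ratio was at least 1 in size, in 1 direction, in all 4 libraries (at least 20 CPM), or between stages (at least 100 CPM in the higher stage). Folds against 0 used 3 counts per library. Calculations used Python 3.11.15, numpy 2.4.6, scipy 1.17.1 and pandas 2.3.3, and were tested on simulated data. No test between stages was possible with 1 library each.

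Named were the 15 highest and 10 lowest genes against other subtypes (ranked by the smallest ratio, at least 50 CPM), the 4 largest rises and falls per stage pair, the 5 genes that moved most unlike the other subtypes in each direction, and the 3 highest and lowest of each gene list; mitochondrial, haemoglobin, ribosomal protein, Xist, Tsix and Y-linked genes were not ranked. Other genes named, and the choice of EN1 nuclei with label 11, were picked with their values in view. The members, gene lists and rules were chosen with earlier results of these data known. Further genes picked by the rule, 1 of which was also left out of a marker sum, are not reported here. Positions are from GENCODE M21 (GRCm38, the build of mm10), in which 31011 gene identifiers were found. Of 62 genes named by rank, 20 overlapped no other gene, 32 overlapped one on the opposite strand and 27 one on the same strand; whether counting used strand is not given, so such genes can share UMIs.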

Additional observations from a re-analysis of the deposited data

How the results depend on the processing

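The count of genes lower in EN9 than in the other subtypes was 53 with a pseudocount of 20 CPM; the count of higher genes stayed between 19 and 38 under all 11 alternatives. The genes themselves changed in part: with EN1, EN3 and EN4 alone as comparators 22 of the 26 higher and 51 of the 82 lower genes remained, and after thinning 21 and 54. The number of genes past 2-fold from E19 to P4, 163 in the report, was 105 with a pseudocount of 20 CPM, 46 with a floor of 200 CPM and 569 after thinning to 2300 UMIs. From P4 to P8 it was 34, 28 and 306 under the same settings. From P8 to P21 it was 103 with the floor of 200 CPM and 478 after thinning, and from E19 to P21 it was 322 with that floor. A higher floor tests fewer genes, and thinning leaves fewer UMIs. The values of named genes moved by more than their interval in 67 of 474 recomputations, among them 16 of 25 with EN1, EN3 and EN4 alone and 21 of 57 after thinning, and none turned its direction. The settings that left out EN9 nuclei outside cluster 20, left out the deepest EN9 nucleus of each library, or used other sets of comparison subtypes were chosen after seeing the data. Median-of-ratios scaling moved the median log2 ratio of all genes at E19 from -0.09 to -0.03. Depth limits the E19 and P4 values most. No replicate could be left out and no paired analysis was possible because each stage had 1 library.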
